A study of Mus musculus with 22 samples.

Results

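The genes that load peptides onto class II molecules of the major histocompatibility complex (MHC) were followed in mouse splenic monocytes and in macrophages made from them, with and without oxidised low-density lipoprotein (ox-LDL). The 10 genes were taken by name from the 55487 genes of each count table: H2-Aa, H2-Ab1 and H2-Eb1, H2-DMa, H2-DMb1 and H2-DMb2, H2-Oa and H2-Ob, Cd74 and Ciita. All 10 were found. The series, which by its title concerns macropinocytosis and foamy monocytes, holds 22 RNA sequencing libraries from wild-type male C57BL/6 mice. Of these, 6 were spleen monocytes with vehicle (replicates 1 to 6) and 5 were spleen monocytes with ox-LDL at 50 µg/mL for 24 hours (7 to 11). Another 5 were macrophages with vehicle (A to E) and 6 were macrophages with the same ox-LDL treatment (G to L). All macrophages had first spent 5 days with phorbol myristate acetate (PMA) at 200 ng/mL, so the cell types also differ in PMA and in days of culture. The age of the mice is not given in the sources used here.

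Class II molecules present peptides from endosomes to CD4+ T cells. The alpha and beta chains of I-A (H2-Aa, H2-Ab1) and the beta chain of I-E (H2-Eb1) assemble with the invariant chain Cd74, which blocks the peptide groove and sorts the complex to endosomes. There the H2-DM heterodimer (H2-DMa with H2-DMb1 or H2-DMb2) exchanges the remaining invariant chain fragment for peptide, and H2-O (H2-Oa with H2-Ob) restrains H2-DM, chiefly in B cells. Ciita is the main transactivator of class II genes. It binds no DNA of its own, but docks on RFX, CREB and NF-Y proteins at the X and Y boxes of the class II promoters. Dendritic cells, B cells and activated macrophages are the classical class II cells.

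The promoter letters show what Ciita's partners are known to read. The RefSeq promoter list used here (GRCm38.p6) held entries of 250 bases before to 50 after the start for 7 members, H2-Aa, H2-Eb1, H2-DMa, H2-DMb1, H2-DMb2, H2-Oa and H2-Ob, in 8 windows. H2-Ab1, Cd74 and Ciita had no entry in that list. A pair of letter patterns was searched on both strands, chosen after the windows had been looked at: GATTGG, the letters of the Y box, and AACNNNTGA, letters within the X box. GATTGG was in 7 of the 8 windows and in 16.1% of all 32851 promoters. AACNNNTGA was in 4 of the 8 windows and in 11.9% of all promoters. The pair, AACNNNTGA with GATTGG starting 15 to 45 bases after it on the same strand, was in those 4 windows and in 0.134% of all promoters (44 of 32851). In the lines that follow, capitals mark these letters in a stretch of 60 bases read 5′ to 3′ along the gene, shown because the same layout recurs at 4 genes, among them the neighbours H2-DMb1 and H2-DMb2, whose levels were far apart in the macrophages.
H2-Eb1: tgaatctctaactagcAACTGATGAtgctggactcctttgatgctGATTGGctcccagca
H2-Ob: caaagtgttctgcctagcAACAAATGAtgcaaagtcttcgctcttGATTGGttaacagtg
H2-DMb1: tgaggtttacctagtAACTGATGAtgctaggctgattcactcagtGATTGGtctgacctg
H2-DMb2: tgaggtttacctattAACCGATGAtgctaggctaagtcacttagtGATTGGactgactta
H2-Aa: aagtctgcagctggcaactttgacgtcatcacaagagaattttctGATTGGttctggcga
H2-Oa: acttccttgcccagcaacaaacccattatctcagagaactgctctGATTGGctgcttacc

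These stretches lie at chr17:34305762-34305821 (H2-Eb1, plus strand), chr17:34238802-34238861 (H2-Ob, plus), chr17:34153084-34153143 (H2-DMb1, plus), chr17:34145113-34145172 (H2-DMb2, plus), chr17:34287858-34287917 (H2-Aa, minus) and chr17:34092290-34092349 (H2-Oa, plus). The starts of the paired patterns were 30 bases apart in H2-DMb1 and H2-DMb2, 29 in H2-Eb1 and 27 in H2-Ob. GATTGG began between 44 bases (H2-Oa) and 91 bases (H2-DMb2) before the listed start of these 6 genes. H2-DMa had 2 listed starts. The window of one held neither pattern, and that of the other held GATTGG 199 bases before the start. A match describes these letters and is no measured binding site.

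In the tables, all 10 are protein-coding genes, and the 8 H2 genes stand on chromosome 17 of GRCm38, from H2-Oa at 34092340 to 34095234 through to H2-Eb1 at 34305867 to 34316674. Ciita is on chromosome 16 (10480059 to 10528418) and Cd74 on chromosome 18 (60803848 to 60812652). H2-DMb2 (34143307 to 34151555) and H2-DMb1 (34153072 to 34160230) are neighbours and near copies: of the 50-base stretches in their GENCODE M21 transcripts, 22.7% of those of H2-DMb1 and 24.8% of those of H2-DMb2 also occur in another gene, and 369 stretches are common to the pair. For H2-Aa the share is 0.488%. How the authors treated reads that fit several places is not given in the sources used here, so the split between these 2 genes is uncertain to that extent. H2-Ab1, H2-Eb1, H2-DMa, H2-Oa, H2-Ob, Cd74 and Ciita shared no such stretch with another gene. On the opposite strand, exons of Brd2 overlap 360 bases of H2-DMa's exons, those of Dexi 329 bases of Ciita's and those of BC051537 321 bases of H2-Oa's, and the strand setting of the counting is not given.

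Libraries held 37330389 to 50257111 counts. Levels are given as CPM, counts scaled to library size with TMM factors over all 22 libraries, or as TPM, which also allow for transcript length. Marker lists set the libraries beside their labels. The macrophage libraries were high in macrophage markers (15 genes, summed CPM of 56832 to 78413, against 10233 to 18765 in monocytes) and had 3 or fewer counts of the B-cell gene Ms4a1 and 4 or fewer of Cd79a in every library. Other genes of the B-cell list had more, with Cd22 at 30.8 to 49.9 CPM, Bank1 at 2.58 to 12.4 CPM and Cd79b at 1.38 to 6.05 CPM. Blk reached 12.7 CPM in the highest library. The libraries labelled monocytes carried much RNA of some dendritic cell genes: the chemokine receptor Ccr7 at 5125 to 8311 CPM, the actin bundler Fscn1 at 1703 to 3733 CPM and the receptor Flt3 at 184 to 367 CPM. Of the 13 dendritic cell genes listed, 2 were under 1 CPM in every vehicle monocyte library and 3 in every ox-LDL one. The integrin Itgax was lower in monocytes than in macrophages (means of 55.2 and 155 CPM with vehicle). In the monocyte libraries the monocyte receptor Ccr2 stood at 7.92 to 30.4 CPM and Ly6c2 at 19.5 to 284 CPM. The 10 monocyte markers summed to 854 to 2157 CPM there, against 2774 to 6777 CPM in macrophages. B-cell markers summed to 331 to 1232 CPM in monocytes (14 of 14 genes with counts) and 40.8 to 69.8 CPM in macrophages. In bulk libraries such as these, fewer cells of a type and less RNA per cell cannot be told apart. The monocyte replicates 5, 6, 10 and 11 were high in neutrophil markers (29743 to 45448 CPM, against 4798 to 5892 in the others), and replicates 1, 2 and 7 were high in B-cell markers (873 to 1232 CPM) and low in erythroid ones (447 to 870 CPM). In macrophages, C, D, I and J stood at one end of the first principal component of all genes but the 10, which held 37.2% of the variance. The labels name no batch, and the sets, each holding vehicle and ox-LDL libraries, were drawn from the data.

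Per length of transcript, Cd74 was the most abundant of the 10 in every group, and Ciita and H2-Ob were among the 3 lowest. In vehicle monocytes the deposited TPM were 25905 ± 6465 for Cd74 (SD, n = 6), 4668 ± 975 for H2-Ab1, 3790 ± 699 for H2-Eb1 and 2090 ± 349 for H2-Aa. H2-DMb2 followed at 282 ± 105, H2-DMb1 at 128 ± 31.3, H2-Oa at 89.7 ± 22.7, H2-DMa at 70.3 ± 13.3, H2-Ob at 27.5 ± 15.1 and Ciita at 26.8 ± 10.7. Neighbours in that order whose libraries overlapped were H2-Ab1 with H2-Eb1, H2-DMb1 with H2-Oa, H2-Oa with H2-DMa, and H2-Ob with Ciita. Ox-LDL monocytes had the same order. The 10 genes together took 37076 ± 8534 TPM in vehicle monocytes and 35302 ± 10069.9 in ox-LDL monocytes (n = 5), and 1708 ± 319 (n = 5) and 841 ± 323 (n = 6) in vehicle and ox-LDL macrophages.

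The order differed in macrophages. With vehicle, Cd74 stood at 1140.3 ± 234 TPM (n = 5), H2-Ab1 at 223 ± 34.5 and H2-Eb1 at 142 ± 28.0, and then came H2-DMb1 at 83.2 ± 9.89, level with H2-Aa at 79.6 ± 15.1. H2-DMa was at 30.8 ± 2.50 and H2-DMb2 at 7.35 ± 1.24. Ciita (0.867 ± 0.228), H2-Oa (0.681 ± 0.288) and H2-Ob (0.311 ± 0.205) were all near or under 1 TPM, with overlapping libraries. With ox-LDL, Cd74 was at 556 ± 225 TPM (n = 6) and H2-Ab1 at 97.2 ± 36.8. H2-DMb1 (63.4 ± 11.9), H2-Eb1 (62.1 ± 31.2), H2-Aa (35.5 ± 15.3) and H2-DMa (20.3 ± 2.18) followed, each overlapping the next. H2-DMb1 was far below the chains of I-A and I-E in monocytes and overlapped H2-Aa in vehicle macrophages. H2-DMb2, above H2-DMb1 in monocytes, was below both H2-DMb1 and H2-DMa in macrophages, with no overlap.

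**Figure D1:**
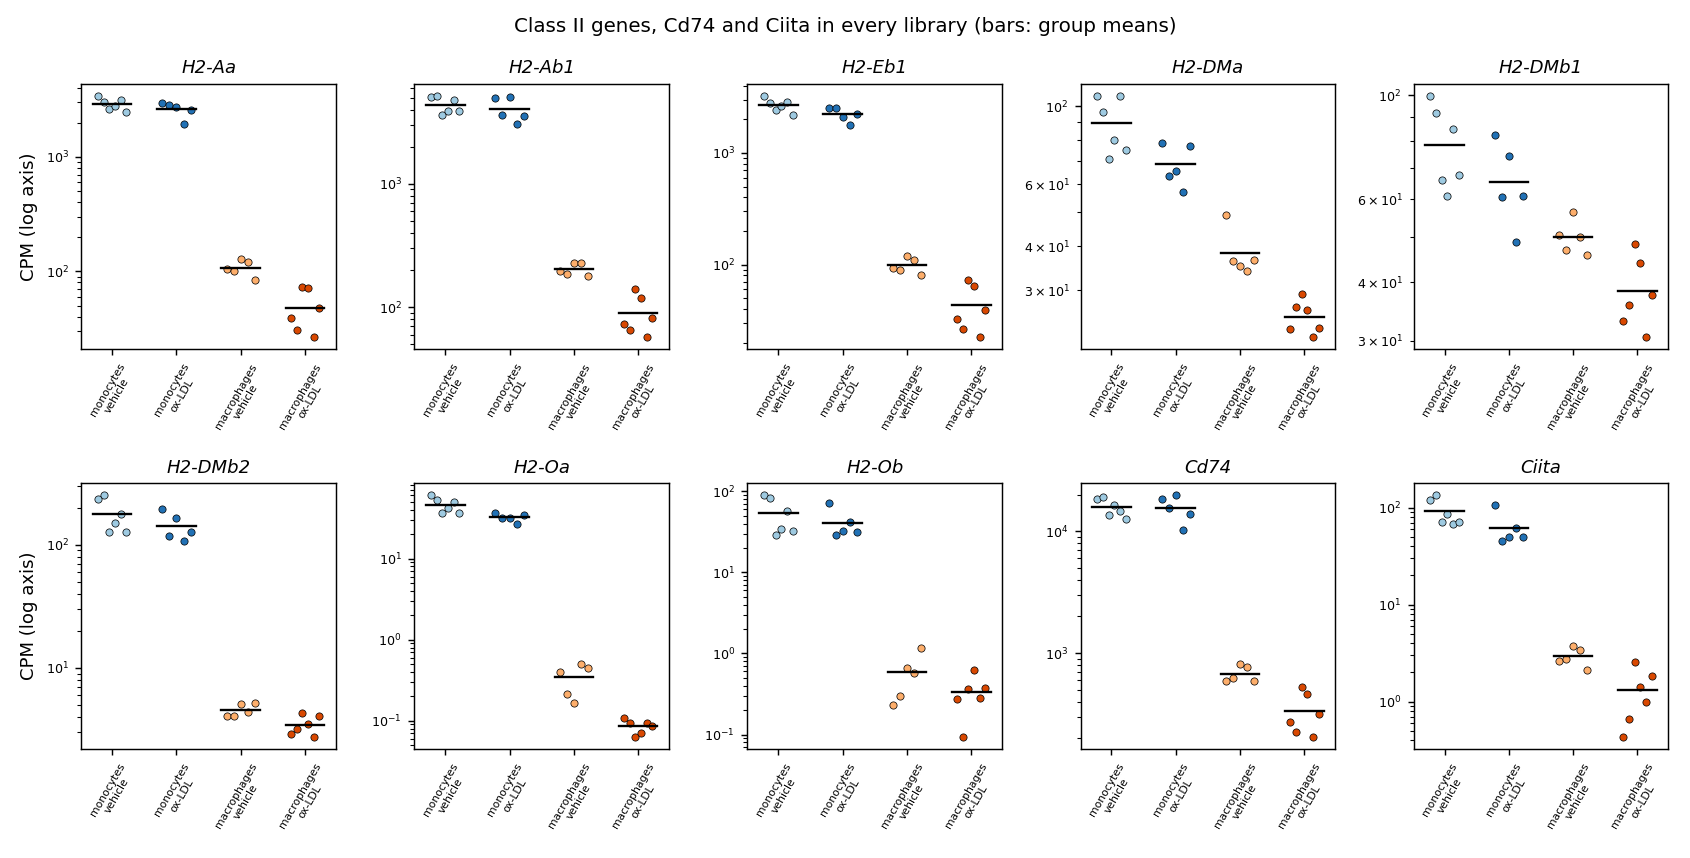
CPM (log axis) of each of the 10 genes in each library, by group, with bars at the group means. The macrophage points lie far below the monocyte points for 8 genes, and much closer for H2-DMa and H2-DMb1.

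Each gene was compared between the groups with edgeR's quasi-likelihood test, adjusted over all genes tested (Benjamini-Hochberg), and a result is named a call where that adjusted p was under 0.05. Fold changes are on the log2 scale with their standard errors. Whether the replicates were separate animals or cultures is not in the labels, and p-values here cover only library-to-library spread, which may be technical.

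In macrophages the chains of I-A and I-E and the invariant chain were 2.03- to 2.28-fold lower with ox-LDL than with vehicle. Of the 9 members tested, 5 were called lower and 0 higher: H2-Aa, H2-Ab1, H2-Eb1, Cd74 and H2-DMa. Over all 14543 genes tested 1.38% were called lower (200 genes, and 142 higher; 334 lower and 92 higher when libraries were scaled by total counts). The median log2 fold change was -1.02 over the 9 members and 0.00 over all genes. All 9 lay below 0. Of the 9 tested, the 5 called genes had every ox-LDL library below every vehicle library, as had 1.79% of all genes tested. The same held for H2-Oa, which was too low to be tested, at 3 to 4 counts with ox-LDL. Leaving out 1 library gave 2 called members without B, C, D, G or L, 3 without E or H, 4 without A or K, 5 without J and 7 without I. Genes called in all ran from 150 to 348 in these fits.

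H2-Ab1, the beta chain of I-A, was at 196, 185.0, 230.4, 227 and 179 CPM in the vehicle libraries A to E and at 73.0, 65, 141, 118, 57.5 and 81.5 CPM in the ox-LDL libraries G to L. The highest ox-LDL library, I, was below the lowest vehicle library, E. It fell by 1.19 ± 0.20 on the log2 scale (edgeR, adjusted p = 0.00744), from 203 ± 23.8 CPM (SD, n = 5) to 89.3 ± 32.9 (n = 6). This call held in all 21 alternatives run, with adjusted p up to 0.027.

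H2-Aa, the alpha chain of I-A, was at 105, 100.0, 128, 120.1 and 84.6 CPM in A to E and at 38.9, 31.0, 73.6, 71.2, 26.7 and 47.5 CPM in G to L. H2-Eb1, the beta chain of I-E, was at 93.5, 90.1, 119, 109 and 80.1 CPM in A to E and at 32.3, 26.5, 73.5, 64.9, 22.5 and 39.0 CPM in G to L. In both genes I and J were the highest ox-LDL libraries and C and D the highest vehicle libraries, and the groups did not overlap. The fall was 2.23-fold for H2-Aa (log2 -1.16 ± 0.24, edgeR adjusted p = 0.0229) and 2.28-fold for H2-Eb1 (log2 -1.19 ± 0.27, adjusted p = 0.0356). Leaving out a single library ended the H2-Aa call for B, C, D, G or L (adjusted p up to 0.0586 over 21 alternatives) and the H2-Eb1 call for any library but I and J (up to 0.0897).

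Cd74, the invariant chain, was at 589.7, 623, 819, 768 and 595 CPM in A to E and at 272, 224, 524, 465 and 206 CPM in G to K, with L at 313 CPM. Again I and J were the highest with ox-LDL, and I was under the lowest vehicle library. The fall was 2.03-fold (log2 -1.02 ± 0.22, edgeR adjusted p = 0.0288). The call was lost without any 1 library other than A, I, J and K (adjusted p up to 0.0752), with fold changes between -1.24 and -0.67 over all 21 alternatives.

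The peptide exchange genes moved less. H2-DMa, the alpha chain of H2-DM, was at 48.9, 36.3, 35.2, 34.0 and 36.4 CPM in A to E and at 23.2, 26.8, 29.2, 26.3, 22.1 and 23.5 CPM in G to L, so that no ox-LDL library reached a vehicle library. It was 1.51-fold lower (log2 -0.60 ± 0.10, edgeR adjusted p = 0.00809). Its beta chains missed the threshold. H2-DMb1 had a log2 fold change of -0.38 ± 0.11 (adjusted p = 0.104) and ran from 45.8 to 56.3 CPM with vehicle and from 30.5 to 48.3 CPM with ox-LDL. H2-DMb2 had -0.40 ± 0.14 (adjusted p = 0.201) and ran from 4.04 to 5.23 CPM and from 2.76 to 4.28 CPM. H2-DMb1 was called with DESeq2 (adjusted p = 0.0316) and without library I (0.0291).

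Ciita, the transactivator, was low but measurable: 125, 101, 162, 142 and 96 counts in A to E and 16, 28, 120, 60, 43 and 84 counts in G to L. In CPM the vehicle libraries ran from 2.13 to 3.79 and the ox-LDL libraries from 0.434 to 2.54, and the groups overlapped through I alone. The log2 fold change was -1.15 ± 0.36 with an adjusted p of 0.126 in edgeR, so it was not called. It was called with DESeq2 (adjusted p = 0.0253) and without library I (log2 -1.45 ± 0.33, adjusted p = 0.038). H2-O was barely detected. H2-Ob had 11 to 53 counts with vehicle and 4 to 27 with ox-LDL (log2 -0.80 ± 0.46, adjusted p = 0.479). H2-Oa had 19, 8, 7, 21 and 20 counts in A to E and 4, 4, 3, 3, 4 and 4 in G to L, and was too low for the filter. Without a filter its adjusted p was 0.0549 in edgeR.

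**Figure D2:**
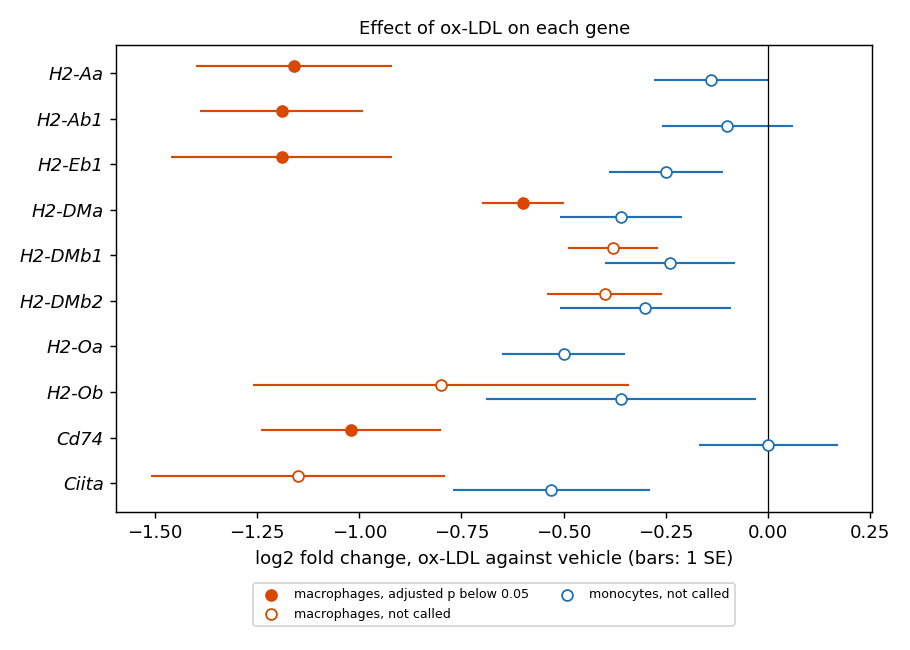
Log2 fold change of each gene with ox-LDL against vehicle, with bars of 1 SE, in macrophages and in monocytes; filled points passed the adjusted p threshold. The I-A and I-E chains and Cd74 lie near -1.02 to -1.19 in macrophages and between -0.25 and 0.00 in monocytes; H2-Oa was not tested in macrophages.

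The libraries C, D, I and J were higher in the classical chains than the libraries of the same treatment outside that set. With vehicle, Cd74 was at 768 to 819 CPM in C and D and at 589.7 to 623 CPM in A, B and E. With ox-LDL it was at 465 to 524 CPM in I and J and at 206 to 313 CPM in G, H, K and L. H2-DMa was lower in the set with vehicle, at 34.0 to 35.2 CPM in C and D and 36.3 to 48.9 CPM in A, B and E. With ox-LDL it was at 26.3 to 29.2 CPM in I and J and at 22.1 to 26.8 CPM in G, H, K and L, which overlap. The summed dendritic cell markers were also higher in the set, at 211 to 252 CPM in C and D and 200.3 to 210.2 in I and J, against 118 to 157 CPM in A, B and E and 71.7 to 128 in G, H, K and L. In macrophages this sum was mostly the integrin Itgax (155 ± 52.8 of 172 ± 57.8 CPM with vehicle, SD, n = 5), which was higher there than in monocytes (55.2 ± 7.81 CPM, n = 6). Of the 13 genes 5 were under 1 CPM in every library, and Flt3 had 13 or fewer counts. Of the 10 T-cell markers, 9 were under 1 CPM in every library, and Cd3e had 2 or fewer counts, so that their sum rested chiefly on 1 gene. This sum was at 103 to 106 CPM in C and D and 32.0 to 68.7 CPM in A, B and E. With ox-LDL it was at 61.0 to 64.7 CPM in I and J and 11.2 to 37.3 CPM in G, H, K and L, so that it was also lower with ox-LDL inside the set. Ccr2 was at 6.73 to 12.2 CPM with vehicle and 2.12 to 5.34 CPM with ox-LDL. The part of these markers in the level of the class II genes was not tested.

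The chains of I-A and I-E and Cd74 were called lower with ox-LDL both inside and outside the set. Inside the set (C and D against I and J) the log2 fold changes were -0.81 ± 0.11 for H2-Ab1 (edgeR adjusted p = 8.71e-05), -0.76 ± 0.11 for H2-Aa (0.000128), -0.71 ± 0.11 for H2-Eb1 (0.000453) and -0.67 ± 0.11 for Cd74 (0.000453). Outside it they were -1.43 ± 0.11 (0.000127), -1.42 ± 0.17 (0.00116), -1.54 ± 0.15 (0.00053) and -1.24 ± 0.13 (0.000575). H2-DMa was called outside the set (log2 -0.76 ± 0.12, adjusted p = 0.00711) and had -0.31 ± 0.13 inside it (0.294). Over all genes 192 of 14722 were called lower inside the set and 244 of 14677 outside it. With the set as a covariate 7 members were called, the 5 and H2-DMb1 (adjusted p = 0.00988) and Ciita (0.0259). That fit also called more genes in general, 498 of 14543 lower against 200 in the main fit. With the summed dendritic cell markers, in macrophages mostly Itgax, as a covariate the log2 fold changes were -1.02 for H2-Ab1, -0.96 for H2-Aa, -0.99 for H2-Eb1 and -0.83 for Cd74, all called. There 582 of 14543 genes were called lower. The difference between the sets in the size of the fall was not tested. The sets were drawn from these same libraries, which can narrow the spread within a set. The p-values inside and outside it, and with it as a covariate, are therefore no independent support.

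**Figure D3:**
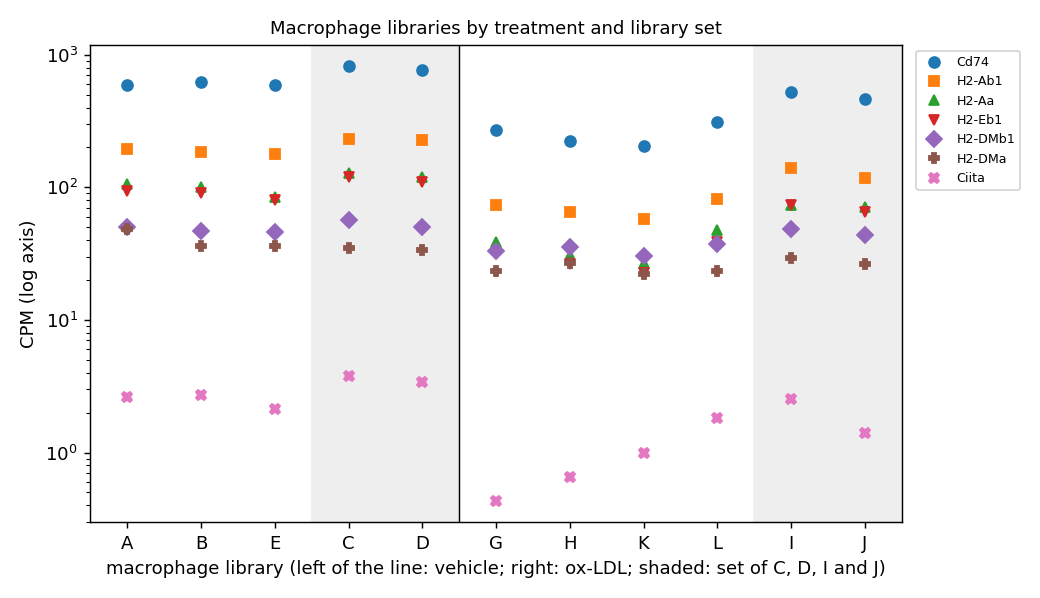
CPM (log axis) of 7 genes in each macrophage library, vehicle left of the line and ox-LDL right of it, with C, D, I and J shaded. The chains of I-A and I-E and Cd74 are higher in the shaded libraries within each treatment, and lower with ox-LDL both in and out of the shading.

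In monocytes 0 of 10 members were called with ox-LDL by edgeR, and 0 by DESeq2 or limma voom. At an unadjusted p under 0.05 there were 3, H2-Oa, H2-DMa and Ciita, and 1718 over all genes. Over all 16575 genes 0% were called lower and 4 genes were called higher. The median log2 fold change was -0.28 over the 10 members and 0.00 over all genes.

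Cd74 was at 12695, 15464 and 19142 CPM (lowest, median and highest of 6) with vehicle and at 18460, 15493, 19663, 10298 and 13920 CPM in the ox-LDL replicates 7 to 11. The groups overlapped throughout, and the log2 fold change was 0.00 ± 0.17. H2-Ab1 (log2 -0.10 ± 0.16), H2-Aa (-0.14 ± 0.14) and H2-Eb1 (-0.25 ± 0.14) had groups that overlapped as well. Further down the pathway the values were H2-DMa -0.36 ± 0.15, H2-DMb1 -0.24 ± 0.16 and H2-DMb2 -0.30 ± 0.21. H2-Oa and Ciita had the lowest values. H2-Oa was at 35.9, 46.1 and 59.9 CPM (lowest, median, highest) with vehicle and at 36.7, 31.1, 31.7, 26.9 and 34.4 CPM in 7 to 11, so that only replicate 7 reached into the vehicle range (log2 -0.50 ± 0.15, edgeR adjusted p = 0.285). Ciita had a log2 fold change of -0.53 ± 0.24 (adjusted p = 0.474) and H2-Ob of -0.36 ± 0.33 (0.77).

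H2-Ob, Ciita and H2-DMb2 were highest in the monocyte replicates 1, 2 and 7, which were also highest in B-cell markers. H2-Ob was at 81.5 and 88.8 CPM in vehicle replicates 1 and 2 and 71.4 CPM in ox-LDL replicate 7, and at 28.5 to 57 CPM in the other 8. Ciita was at 121, 134 and 106 CPM in 1, 2 and 7 and at 45.1 to 86.3 CPM in the other 8. Among these 8 its relation to the B-cell markers was mixed. Vehicle replicate 5, the next highest in them (679.5 CPM), had the lowest vehicle Ciita, at 67.3 CPM. Vehicle replicate 4 was above 3 and 6 in both, with B-cell markers at 418 CPM and Ciita at 86.3 CPM. Replicate 10 was the highest ox-LDL library after 7 in both, at 480.9 CPM and 61.4 CPM. H2-DMb2 was at 236, 252 and 197 CPM in 1, 2 and 7 and at 107 to 177 CPM in the other 8. With the summed B-cell markers as a covariate the ox-LDL value of H2-Ob became 0.04 ± 0.10 and that of Ciita -0.35 ± 0.15 (adjusted p = 0.397). Cd74 was at 18237 to 19142 CPM in 1, 2 and 7 and at 19663 CPM in 9, above the other 7 (10298 to 16362 CPM). The part of B cells in these levels was not tested.

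The question of whether ox-LDL acted differently in the 2 cell types was put to the difference of the effects. In edgeR 0 of the 10 members were called, as 0.0573% of 17466 genes were called lower. At an unadjusted p under 0.05 there were 5: H2-Oa, H2-Ab1, H2-Aa, Cd74 and H2-Eb1, beside 1261 of all genes. H2-Oa passed the filter of this fit only through the monocytes, where it is high, and its macrophage values rest on the few counts given above. The difference (macrophage effect minus monocyte effect, log2) was -1.06 ± 0.28 for H2-Ab1 (adjusted p = 0.234), -1.0 ± 0.29 for H2-Aa (0.359), -0.92 ± 0.32 for H2-Eb1 (0.518), -1.0 ± 0.30 for Cd74 (0.37) and -1.47 ± 0.35 for H2-Oa (0.17). It was small for the H2-DM genes, at -0.21 ± 0.18 for H2-DMa, -0.12 ± 0.21 for H2-DMb1 and -0.07 ± 0.27 for H2-DMb2. For Ciita it was -0.59 ± 0.44 and for H2-Ob -0.42 ± 0.59. DESeq2 called H2-Ab1 (adjusted p = 0.0466). With the library sets of both cell types as covariates, added after the data were seen, 5 members were called: H2-Ab1 (adjusted p = 0.00334), Cd74 (0.00409), H2-Aa (0.0115), H2-Eb1 (0.0229) and, with the same limit, H2-Oa (0.0407). Over all 17466 genes DESeq2 called 44 lower and the fit with library sets 70, against 10 in the main fit.

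The larger contrast was between the cell types. All 10 members were called lower in macrophages than in monocytes with vehicle, where 35.1% of 16288 genes were called lower, and with ox-LDL, where 35% of 15825 were. The calls held in all 17 alternatives of each comparison, and in each gene every macrophage library was below every monocyte library. The share of all genes separated in this way was not counted, so the separation does not set the members apart. H2-Oa passed the filter of these fits only through the monocytes, where it is high, so its call was largely fixed in advance. The median log2 fold change was -4.79 over the members with vehicle and -5.58 with ox-LDL, against -0.09 and -0.07 over all genes. These comparisons share their libraries with those of ox-LDL, and the monocyte libraries also carried the dendritic cell and B-cell markers given above, whose part was not tested.

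The H2-O chains and H2-DMb2 were the furthest down with vehicle. H2-Oa was at 46.1 ± 9.66 CPM in monocytes (SD, n = 6) and 0.344 ± 0.146 in macrophages (n = 5, 7 to 21 counts), a log2 fold change of -7.06 ± 0.28. H2-Ob was at 53.7 ± 26.4 and 0.586 ± 0.374 CPM (log2 -6.52 ± 0.49), and H2-DMb2 at 178 ± 53.9 and 4.56 ± 0.556 CPM (log2 -5.31 ± 0.23). Ciita was 31.7-fold lower, at 91.6 ± 28.5 and 2.93 ± 0.654 CPM. The chains of I-A and I-E were 21.9-fold (H2-Ab1), 27.4-fold (H2-Aa) and 27.8-fold (H2-Eb1) lower, and Cd74 23.6-fold. H2-DMa and H2-DMb1 differed far less: H2-DMa was 2.37-fold lower (log2 -1.25 ± 0.14, edgeR adjusted p = 4.69e-06) and H2-DMb1 1.6-fold (log2 -0.68 ± 0.14, adjusted p = 0.000667). With ox-LDL the values were 46.1-fold for H2-Ab1, 55.2-fold for H2-Aa, 53-fold for H2-Eb1, 47.7-fold for Cd74, 48-fold for Ciita, 2.77-fold for H2-DMa and 1.75-fold for H2-DMb1.

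**Figure D4:**
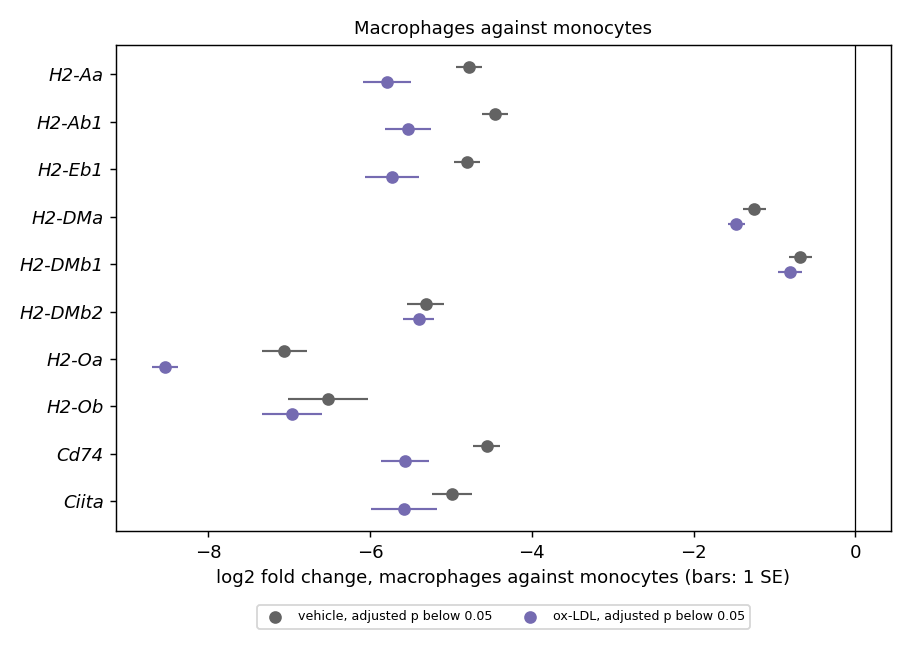
Log2 fold change of each gene in macrophages against monocytes, with vehicle and with ox-LDL, with bars of 1 SE. H2-DMa and H2-DMb1 lie between -0.68 and -1.47 and the other 8 genes between -4.45 and -8.54.

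Ratios within a library do not depend on its scaling. Of 4 ratios of counts per kilobase in 4 contrasts, 16 tests in all, each was tested with an exact 2-sided permutation test over libraries, in which 6 against 5 libraries cannot go below p = 0.00433. The twin beta chains of H2-DM exchanged rank. In monocytes the log2 ratio of H2-DMb2 to H2-DMb1 was 1.10 ± 0.21 in the vehicle group (SD, n = 6) and 1.06 ± 0.11 in the ox-LDL group (n = 5), or about 2.14 and 2.08 times as much H2-DMb2. In macrophages it was -3.51 ± 0.19 (n = 5) and -3.52 ± 0.15 (n = 6), or 0.088 and 0.0874 times as much. All 11 monocyte libraries lay between 0.86 and 1.40 and all 11 macrophage libraries between -3.71 and -3.18, with an exact permutation p of 0.00433 in both treatments (adjusted 0.0115). With ox-LDL the ratio differed by -0.01 in macrophages and -0.04 in monocytes (exact permutation p = 0.944 and 0.732). The promoter stretches of these twins shown above fit the same pair of patterns at the same distance. Those patterns were chosen after the windows had been looked at, and the part of the promoters in the ratio was not tested.

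H2-O, the restraint, was also scarce beside H2-DM in macrophages. The log2 ratio of H2-Oa and H2-Ob to the 3 H2-DM genes was -2.04 ± 0.08 in vehicle monocytes (n = 6) and -6.98 ± 0.60 in vehicle macrophages (n = 5; exact permutation p = 0.00433, adjusted 0.0115). With ox-LDL it was -7.91 ± 0.34 in macrophages (n = 6), below vehicle by 0.94 with no overlap (exact permutation p = 0.00433, adjusted 0.0115), on the few H2-O counts given above. In monocytes the ox-LDL difference was -0.15 (exact permutation p = 0.0476, adjusted 0.0847).

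Cd74 and H2-Ab1 kept nearly the same proportion in all groups. The log2 ratio of Cd74 to H2-Ab1 was 2.46 ± 0.17 and 2.56 ± 0.13 in vehicle and ox-LDL monocytes, and 2.35 ± 0.09 and 2.50 ± 0.07 in vehicle and ox-LDL macrophages. The macrophage difference of 0.16 passed the test (exact permutation p = 0.00866, adjusted 0.0198), though the libraries overlapped, with C at 2.44 and H at 2.40. The log2 ratio of H2-Aa to H2-Ab1 was lower in macrophages than in monocytes with vehicle by 0.34 (exact permutation p = 0.00433, adjusted 0.0115), from -1.15 ± 0.12 to -1.49 ± 0.09. In the ox-LDL libraries the same contrast was -0.30 and did not pass (exact permutation p = 0.0303, adjusted 0.0606). With ox-LDL it differed by 0.01 in macrophages (exact permutation p = 0.948).

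**Figure D5:**
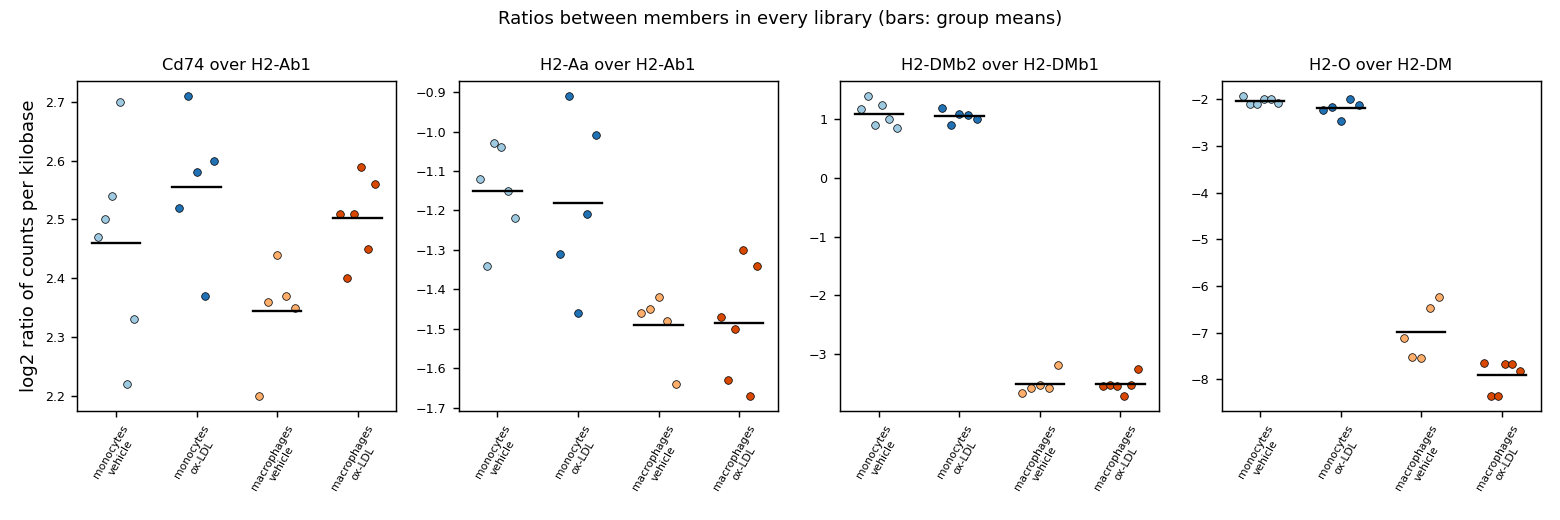
Log2 ratios of counts per kilobase in each library by group, with bars at the means: Cd74 to H2-Ab1, H2-Aa to H2-Ab1, H2-DMb2 to H2-DMb1, and the H2-O to the H2-DM genes. The last 2 panels separate the cell types without overlap.

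The rest of the pathway was read from lists of genes. Of the 7 proteins that bind the class II promoter (RFX, NF-Y and CREB subunits), 0 were called with ox-LDL in either cell type. The most abundant, Creb1 and Nfyc, had log2 fold changes of -0.16 ± 0.09 and 0.09 ± 0.09 in macrophages and -0.18 ± 0.16 and 0.18 ± 0.12 in monocytes. The list's median was -0.09 in macrophages. Between the cell types 4 of the 7 were called lower in macrophages with vehicle, where 35.1% of all genes were. Their median was -0.41, a far smaller step than that of the members.

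Genes that cut the invariant chain or turn class II over did not pass the test with ox-LDL in either cell type (0 of 10 called in each, median -0.06 in macrophages and 0.31 in monocytes). The lysosomal proteases Ctsb and Ctsd, the most abundant, had 0.12 ± 0.10 and 0.16 ± 0.06 in macrophages (edgeR adjusted p = 0.661 and 0.248) and 0.66 ± 0.16 and 0.42 ± 0.16 in monocytes (0.22 and 0.371). Against monocytes, vehicle macrophages had 7 of the 10 higher and 2 lower, with a median of 1.06, opposite in sign to the members. Over all genes 28.5% were called higher and 35.1% lower.

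Of 13 genes of interferon-gamma signalling and regulators of Ciita, 0 were called in monocytes with ox-LDL. In macrophages 1 was called lower with ox-LDL, where 1.38% of all genes were. It was Irf2, an interferon regulatory factor that binds the Ciita promoter with Irf1, at 79.6 to 92.1 CPM with vehicle and 60.3 to 76.5 CPM with ox-LDL (log2 -0.32 ± 0.06, edgeR adjusted p = 0.0212). Irf1, named after its value was seen, had -0.43 ± 0.12 (edgeR adjusted p = 0.0899). In monocytes the most abundant, Spi1 and Irf8, had 0.01 ± 0.15 and -0.14 ± 0.15. The list's median in macrophages was -0.15. Against monocytes, vehicle macrophages had 9 of these 13 lower and 2 higher, with a median of -0.67, where 35.1% of all genes were called lower. Of 9 costimulatory genes, 7 were tested in macrophages and 1 was called, Cd274 (PD-L1, the ligand that restrains T cells), which rose by 0.48 ± 0.09 on the log2 scale (edgeR adjusted p = 0.0182, where 0.976% of all genes were called higher) from 35.1 ± 3.75 to 49.1 ± 5.77 CPM, with overlapping libraries. In monocytes 0 of 9 were called, with Icam1 at -0.09 ± 0.13 and Icosl at -0.00 ± 0.19. All 9 were called lower in macrophages than in monocytes with vehicle, with a median of -2.98, where 35.1% of all genes were called lower. Of these, Pdcd1lg2 and Tnfsf4 were too low to be tested in macrophages alone. They passed the filter of this fit through the monocytes.

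Of 9 other genes of the class II region, 6 were tested with ox-LDL in macrophages and 2 were called lower, where 1.38% of all genes were. In monocytes 0 of 9 were called. In macrophages the class I peptide genes Psmb9 (an immunoproteasome subunit, log2 -0.38 ± 0.08, edgeR adjusted p = 0.0271) and Tap1 (a peptide transporter, -0.37 ± 0.09, 0.0415) were the 2, with values near those of H2-DMb1 and H2-DMb2. Psmb8 (-0.10 ± 0.08), Tap2 (-0.13 ± 0.07), Brd2 (0.08 ± 0.07) and Notch4 (-0.10 ± 0.48) were not called. Against monocytes, 7 of the 9 were called lower in vehicle macrophages, where 35.1% of all genes were. The median was -3.17, and Psmb8 (9.79-fold), Psmb9 (9.51-fold), Tap1 (9.02-fold) and Tap2 (5.89-fold) were among the 7. So were H2-Eb2, H2-Ea-ps and Btnl2, which were too low to be tested in macrophages alone. These passed the filter of this fit through the monocytes. Notch4 was called higher (log2 1.57 ± 0.46). Brd2, which overlaps H2-DMa, was not called (log2 -0.04 ± 0.09 with vehicle and 0.42 ± 0.19 with ox-LDL). H2-Eb2, a beta-chain gene beside H2-Eb1, was at 90.6 to 131 CPM in vehicle and 57.8 to 89.1 CPM in ox-LDL monocytes, where the groups did not overlap (log2 -0.54 ± 0.14, adjusted p = 0.233, not called; 0.748% of genes had every ox-LDL library below every vehicle library). It had 11 or fewer counts in each macrophage library. Btnl2 was under 0.9 CPM throughout, and H2-Ea-ps, the I-E alpha gene that is defective in this strain's haplotype, was under 0.7 CPM.

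The genes most like Cd74 were ranked by the root mean square difference of log2 CPM, each gene centred on its mean over the 11 libraries of a cell type. In macrophages, among 14542 genes, the first 3 were members: H2-Ab1 (difference 0.10), H2-Aa (0.11) and H2-Eb1 (0.15), where Cd74's own root mean square deviation was 0.67. Ciita ranked 23rd (0.31), H2-DMb1 162nd (0.42), H2-DMa 274th (0.46), H2-DMb2 336th (0.48) and H2-Ob 786th (0.55). The closest genes that are no member were Cd72 (0.21), Msmo1 (0.23), Hsd17b7 (0.24), Cytip (0.25) and Ighm (0.26). Cd72 is a receptor of B cells and myeloid cells, and Msmo1 and Hsd17b7 are enzymes of cholesterol synthesis. Ighm, an immunoglobulin heavy chain gene of B cells, was not in the B-cell marker list, and the part of B cells in this likeness was not tested. In monocytes Cd74's own deviation was 0.27 and no member was among the first 5. H2-Ab1 ranked 93rd (0.14) and H2-Aa 277th (0.17) of 16574 genes, behind Mif4gd (0.07), Stap2 (0.08), Rogdi (0.09), H2-T22 (0.09) and Tnfrsf4 (0.10). The other members ranked from 810th (H2-DMb1) to 13116th (H2-Ob), with H2-Eb1 at 1363rd and Ciita at 11167th. These likenesses describe 11 libraries per cell type that share treatment and library set, and carry no test.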

How the data were processed

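The authors aligned reads with STAR 2.7.9a to GRCm38 and counted them with featureCounts 2.0.3 (Subread), per the submitters' processing notes. Libraries were made with a SMARTer Ultra Low kit from 10 ng of RNA, per the labels' protocols. The authors deposited raw counts per gene, and their deposited TPM, used for levels between genes, departed from counts over length in 0 genes. Counts were fitted with edgeR 4.0.16 in R 4.3.3 (TMM, filterByExpr, quasi-likelihood F test, 2-sided), each comparison on its own groups and the difference of effects over all 4 groups; fits were tested on simulated data. Alternatives used DESeq2 1.42.0 and limma 3.58.1. Ratios had 0.5 counts added. The members and lists were chosen with earlier results of these data known. Of lists, up to 4 called genes of the highest fold change were named per ox-LDL comparison, or the 2 most abundant, and all neighbours. In Cd74 likeness, 0.5 CPM were added before log2. No library was left out, and no 2 libraries agreed within sampling noise. Gene positions equalled those of GENCODE M21 for 99.4% of the genes in both.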

Additional observations from a re-analysis of the deposited data

Results flagged for a closer look

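In 2 of the 40 sets of libraries formed by a gene and a group, 1 library stood far from the others, where chance gives about 5% of sets. H2-DMa was at 48.86 CPM in vehicle macrophage A, against 33.99 to 36.4 CPM in B to E. Without A it fell by 0.49 on the log2 scale with ox-LDL in macrophages (edgeR adjusted p = 0.00919). Ciita was at 105.6 CPM in ox-LDL monocyte 7, against 45.05 to 61.42 CPM in 8 to 11. Without 7 the log2 fold change of Ciita in monocytes was -0.79 ± 0.21 (edgeR adjusted p = 0.256). Replicate 7 was also the ox-LDL library highest in B-cell markers, at 872.8 CPM, and the part of these cells in its Ciita value was not tested.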

How the results depend on the processing

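No paired analysis was possible because the groups share no replicate numbers. In macrophages with ox-LDL the 5 members called became 2 to 7 when 1 library was left out (2 without B, C, D, G or L), and H2-Ab1 and H2-DMa stayed called in each of those 11 fits. Other settings gave 4 to 7, none higher. The 342 genes called overall became 698 with DESeq2, 807 with 2 library sets, 928 with dendritic cell markers as a covariate and 80 in 1 fit over all 4 groups, and 150 to 348 with 1 library left out. In monocytes 0 members were called in each setting, while the 4 genes called overall became 151 with DESeq2, 122 and 227 with 2 and 3 library sets, 259 in 1 fit over all 4 groups, 41 with dendritic cell markers, 0 without replicates 5, 6, 10 and 11, and 0 to 8 with 1 library left out. For the difference of effects the 0 members became 1 with DESeq2 and 5, H2-Oa included, with library sets as covariates, and stayed 0 with 1 library left out, while the 11 genes overall became 62, 92, 129 without replicates 5, 6, 10 and 11, 5 with total counts, and 1 to 44 with 1 library left out. Between the cell types all 10 stayed called in each setting. Signs turned where values were near 0. In monocytes with ox-LDL these were H2-Ab1 (0.05 without replicates 5, 6, 10 and 11) and H2-Ob (0.04 with B-cell markers). Over all 28 alternatives, the difference of effects ran from -0.20 to 0.07 for H2-DMb2 and from -0.69 to 0.01 for H2-Ob. Each ratio had 12 alternatives, with 1 library left out or another added count. Over these the ox-LDL shift of H2-Aa to H2-Ab1 ran from -0.10 to 0.04 in monocytes and -0.03 to 0.04 in macrophages. That of H2-DMb2 to H2-DMb1 ran from -0.09 to 0.02 and -0.06 to 0.07. The causes were not tested. In macrophages the library sets, and in monocytes the third set, were added after the data were seen. Depth limits H2-Oa, H2-Ob and Ciita in macrophages.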
